A study of Mus musculus with 8 samples.

Results

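Keratins are the intermediate filament proteins of epithelial cells, and the genes described here are all rows of the deposited tables whose symbol begins with Krt followed by a digit. By this rule 41 of the 19593 genes listed in any of the tables were keratin genes, 22 of them type I and 19 of them type II. A keratin filament is built from pairs of 1 type I (acidic) and 1 type II (basic) chain, so that neither type makes a filament alone. In mouse epidermis the pair Krt5 and Krt14 is known from the basal layer, and Krt1 and Krt10 replace it as keratinocytes leave that layer. Krt15 is known from basal and hair follicle bulge keratinocytes, Krt79 and Krt17 from follicle ducts and follicle epithelium, and Krt6a, Krt6b and Krt16 from the companion layer of the follicle and from injured skin.

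The study asked which epidermal cells express Troy (the gene Tnfrsf19) in resting adult back skin. It used C57BL/6 mice in which a cassette of EGFP and the tamoxifen-inducible recombinase CreERT2 stands in place of the coding part of Troy, so that EGFP marks Troy-expressing cells and at least 1 Troy allele is lost in every group. For 2 replicates of these mice, called mouse 1 and 2 in the bulk results, 3 bulk RNA libraries each were sequenced. They came from all viable (DAPI-) epidermal cells, from Troy-EGFP+ ITGA6bright cells and from Troy-EGFP- ITGA6bright cells. ITGA6bright is a gate on an integrin of the basal layer. Whether the 3 populations of a replicate came from 1 animal is not stated in the labels. For 4 further samples, named Troy-EGFP mice 1 to 4 below, EGFP+ and EGFP- cells were sorted singly into the wells of 1 plate each, and 2 plates came from mice that carried both the Troy cassette and a Rosa26-LSL-tdTomato reporter, were homozygous for both, and had been given tamoxifen a week earlier, so that cells with a Troy-driven CreERT2 history and their progeny were red. On these last plates, called traced mice 1 and 2, tdTomato+ and tdTomato- cells were mixed. The tables do not say which gate a well came from, so keratins could be compared between gates in the bulk libraries only. The labels do not name a separate animal for each replicate, and the p-values below measure the spread between these libraries, which may be partly technical.

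Keratin genes lie in 2 dense clusters. In the GENCODE annotation of GRCm38, 21 of the type I genes lie within 1.037 Mb of chromosome 11 (99232761 to 100269871), and 18 type II genes lie within 0.657 Mb of chromosome 15 (101347444 to 102004482). Krt18, the type I partner of Krt8 in simple epithelia, is the exception: it lies at 102028180 to 102032027 on chromosome 15, beside the type II genes. The remaining type II gene, Krt85, had no matching entry. The chromosome given in the tables was that of the annotation for each matched gene. Many also share letters just before their start. RefSeq (GRCm38.p6) gave a promoter for 27 of the 41 genes, with no entry for Krt1, Krt15, Krt16, Krt17, Krt6a or Krt6b among those tested below and a Krt14 start inside the annotated gene. The letters ATAAA, the end of a TATA box, stood between 40 and 21 bases before the start on the gene's strand in 15 of these 27 (55.6%) against 1242 of all 32851 promoters (3.78%). The longer TATAAA was found on either strand of the 300-base promoter in 13 of the 27 (48.1%) and in 13.6% of all. The ATAAA of the shorter search also lies within every TATAAA on the gene's strand, so the searches overlap, and a match is a description of the letters only. The 100 bases before the RefSeq start are printed for 6 keratins that differ in where they were found below: the basal keratin Krt5, the suprabasal Krt10 and Krt78, Krt32, the upper follicle Krt79 and the lower follicle Krt24. Each is written 5′ to 3′ on the strand of the gene, and capitals mark ATAAA within the window. It began 29 bases before the start in Krt5 and Krt78, 28 in Krt32 and 25 in Krt10, and it was not in the window of Krt79 or Krt24. The window of Krt24 holds the similar letters tatataa, so a search for ATAAA cannot tell that a TATA box is absent.
Krt5, chr15:101712906-101713005, minus strand: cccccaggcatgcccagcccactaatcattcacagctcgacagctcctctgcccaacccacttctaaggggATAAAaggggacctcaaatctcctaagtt
Krt10, chr11:99389365-99389464, minus strand: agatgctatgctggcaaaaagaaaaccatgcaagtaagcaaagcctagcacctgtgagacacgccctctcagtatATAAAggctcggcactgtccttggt
Krt78, chr15:101954288-101954387, minus strand: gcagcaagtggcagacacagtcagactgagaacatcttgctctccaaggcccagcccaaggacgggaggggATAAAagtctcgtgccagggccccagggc
Krt32, chr11:100088270-100088369, minus strand: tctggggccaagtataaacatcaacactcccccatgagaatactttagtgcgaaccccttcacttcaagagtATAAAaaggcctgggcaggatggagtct
Krt79, chr15:101940325-101940424, minus strand: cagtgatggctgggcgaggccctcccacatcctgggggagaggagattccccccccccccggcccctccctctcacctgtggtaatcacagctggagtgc
Krt24, chr11:99285263-99285362, minus strand: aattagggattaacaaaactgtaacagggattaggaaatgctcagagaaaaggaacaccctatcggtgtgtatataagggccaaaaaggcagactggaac

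The bulk libraries held 157537 to 453005 counts, and the plates kept 71, 129, 218 and 262 wells of the Troy-EGFP mice and 229 and 200 wells of the traced mice, of 384 wells each, after wells with fewer than 1000 transcripts were left out. Troy-EGFP mouse 1 stood apart: its kept wells had a median of 1676 transcripts, the lowest of the plates, and 44 of its 71 kept wells fell in a cluster led by Mir1950, a sign of necrotic cells. The targeted gene Tnfrsf19 had 41 and 16 counts in the Troy-EGFP+ libraries and 3 and 6 counts in the Troy-EGFP- libraries, with 24 and 37 counts in viable cells. Mitochondrial genes took 12.5% to 16.1% of the bulk counts, and rows for them were present on the plates of Troy-EGFP mice 3 and 4 and absent from the other plates. The sorted populations also differed in non-keratinocyte genes. All 6 Langerhans cell markers were listed, and their summed level was 96.6 and 92.7 CPM (counts scaled to equal library totals) in Troy-EGFP+ cells, 1117 and 1201 among Troy-EGFP- cells and 567 and 338 in viable cells. The 7 listed of 8 T cell markers summed to 4.22 to 7.43 CPM, 149 to 260 CPM and 77.3 to 91.8 CPM in the same order. Melanocyte markers (4 of 5 listed) summed to 7.43 and 12.6 CPM in Troy-EGFP+ and 108 and 85 CPM in Troy-EGFP- cells, and the necrosis-linked RNAs Mir1950 and Kcnq1ot1 to 7445 and 8047 CPM against 11147 and 17086 CPM, with 18873 and 7885 CPM in viable cells. The part of these cells and RNAs in the keratin differences was not tested.

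Of the 41 keratins, 33 were listed in the bulk tables and 38 on the plates. Krt6b, Krt27 and Krt85 were in the bulk tables only, and 8 were on the plates only. In the kept cells, 33 keratins had a transcript in Troy-EGFP mice and 28 in traced mice, and 17 were found in fewer than 5 cells of all plates. A total of 19 keratins reached 10 bulk counts or 2% of the kept cells of the Troy-EGFP mice and are described by name. The other 22 had at most 5 bulk counts over all 6 libraries, and Krt2 and Krt7 among them were in 2.56% and 2.10% of traced cells.

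Keratin genes took 2.46% to 3.48% of the counts of a bulk library, and 17 to 25 of them were found in each. Their share was lowest in the Troy-EGFP- libraries, at 2.46% and 2.56%, against 3.22% and 3.32% in Troy-EGFP+ cells. Krt5, Krt14 and Krt15 together made up 80.0% to 91.1% of all keratin counts. Since the method counts 3′ ends, a count does not grow with the length of the transcript, and levels of different keratins are set side by side on that basis. The type I chains made up 49.4% and 52.8% of keratin counts in viable cells, 44.4% and 47.7% in Troy-EGFP+ cells and 55.7% and 54.0% in Troy-EGFP- cells. The 2 sorted populations did not overlap in this share, with type II chains in the majority in both Troy-EGFP+ libraries and type I chains in both Troy-EGFP- libraries.

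Which keratins differ between Troy-EGFP+ and Troy-EGFP- cells of the same ITGA6bright gate was tested with edgeR over the 4653 genes that passed the count filter, 11 of them keratins. Krt1 and Krt10 were higher in Troy-EGFP+ cells, Krt79 and Krt6a were lower, and the other 7 did not pass an adjusted p of 0.05. These 4 of 11 compare with 7.05% of all genes tested, and the 2 higher and 2 lower keratins with 2.99% and 4.06%. The median log2 fold change was -0.58 over the 11 keratins and -0.04 over all genes, and 7 of the 11 had an unadjusted p under 0.05, as did 923 of all 4653 genes. In bulk libraries a smaller number of cells of one type cannot be told apart from less RNA in each cell.

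**Figure D1:**
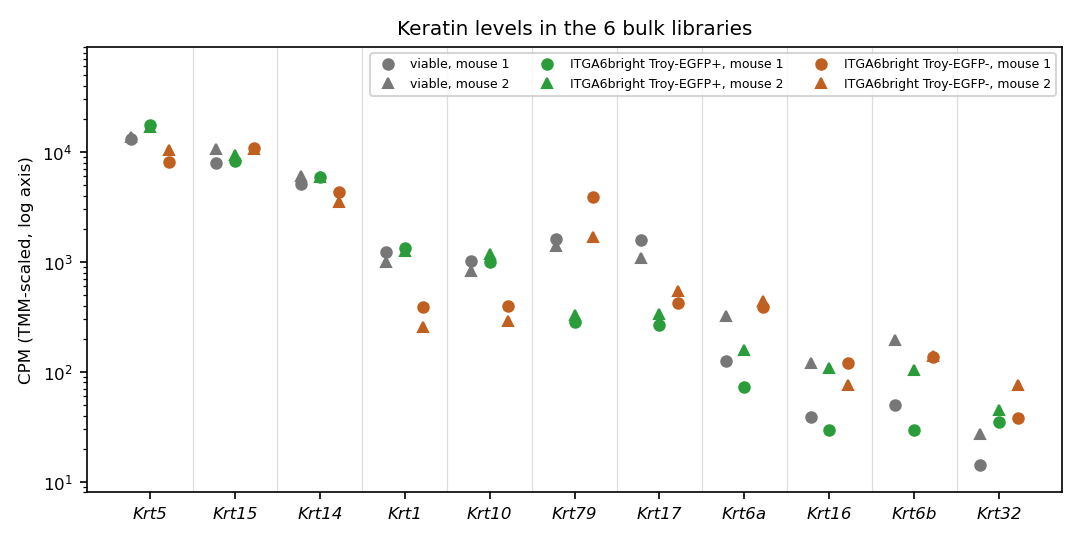
Normalised CPM (log scale) of the 11 tested keratin genes in each of the 6 bulk libraries, with a point per library, shapes for the mice and colours for viable, Troy-EGFP+ and Troy-EGFP- cells. Krt79 lies between 287 and 329 CPM in Troy-EGFP+ cells and at 3895 and 1673 CPM in the Troy-EGFP- libraries, whereas the Krt15 points of viable and Troy-EGFP+ cells overlap and lie below those of Troy-EGFP- cells.

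Krt5, the type II chain of the basal layer, was the most abundant keratin in viable and in Troy-EGFP+ libraries. It was at 13056 and 13787 normalised CPM in viable cells, 17637 and 16724 in Troy-EGFP+ cells and 8131 and 10397 in Troy-EGFP- cells. Every Troy-EGFP+ library was above every other library, and the log2 fold change of 0.89 over Troy-EGFP- cells (SE 0.33) did not pass in edgeR (adjusted p = 0.119). It passed with the Troy-EGFP- library of mouse 1 or of mouse 2 left out, without the count filter and in DESeq2. Its type I partner Krt14 was at 5138 and 6016 CPM in viable cells, 5938 and 5881 in Troy-EGFP+ cells and 4363 and 3522 in Troy-EGFP- cells. Both Troy-EGFP+ values were again above both Troy-EGFP- values, by 0.58 on the log2 scale (SE 0.32, adjusted p = 0.326, edgeR). With the first mouse's Troy-EGFP- library left out this difference passed (adjusted p = 0.0241, edgeR). Krt15 was the most abundant keratin in the Troy-EGFP- libraries, at 10946 and 10676 CPM, against 8186 and 9399 in Troy-EGFP+ cells and 7910.2 and 10665 in viable cells. Both Troy-EGFP- values were above every other library, although the viable library of mouse 2 lay just below the Troy-EGFP- library of the same mouse, and the difference of -0.30 between the sorted populations (SE 0.33, adjusted p = 0.678, edgeR) was smaller than its error.

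The pair of the suprabasal layers was higher in Troy-EGFP+ cells. Krt1, the type II chain, was at 1332 and 1267 CPM in Troy-EGFP+ cells, 385 and 257 among Troy-EGFP- cells and 1233 and 1001 in viable cells. All libraries of the other populations were thus well above the Troy-EGFP- libraries, with a 4.08-fold difference between the sorted populations (log2 2.03, SE 0.32, adjusted p = 0.000338, edgeR). Krt10, the type I chain, was at 1002 and 1168 CPM, 400.1 and 292 CPM, and 1016 and 823 CPM in the same order. It differed 3.15-fold (log2 1.66, SE 0.31, adjusted p = 0.00179, edgeR), again with no overlap between the sorted populations. The 12 listed markers of committed and suprabasal interfollicular epidermis (IFE), none of them a keratin, summed to 2305 and 2403 CPM in Troy-EGFP+ cells and 990.2 and 653 CPM in Troy-EGFP- cells. Against viable cells, Krt1 was lower in Troy-EGFP- cells (log2 -1.81, SE 0.32, adjusted p = 0.00403, edgeR), as was Krt10 (log2 -1.42, SE 0.31, adjusted p = 0.0190, edgeR). Krt10 lost this call without either viable library.

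The follicle keratin Krt79 went the other way, whereas Krt17 was not called between the sorted populations. Krt79, a type II keratin of the follicle canal and sebaceous duct, was at 287 and 329 CPM in Troy-EGFP+ cells, 3895 and 1673 among Troy-EGFP- cells and 1600 and 1386 in viable cells. The Troy-EGFP- libraries differed from each other more than for any keratin above, and both were still above each Troy-EGFP+ library. Krt79 was 9.04-fold lower in Troy-EGFP+ than in Troy-EGFP- cells (log2 -3.18, SE 0.38, adjusted p = 2.18e-05, edgeR) and 4.86-fold lower than in viable cells (log2 -2.28, SE 0.37, adjusted p = 0.00362, edgeR). Without the Troy-EGFP- library of mouse 1 the difference between the sorted populations was smaller, at a log2 fold change of -2.44, and still called. Krt17, a type I keratin of follicle epithelium, was at 265 and 338 CPM in Troy-EGFP+ cells, 423 and 542 among Troy-EGFP- cells and 1593 and 1086 in viable cells. Here both ITGA6bright populations lay below the viable cells, by 4.46-fold in Troy-EGFP+ cells (log2 -2.16, SE 0.31, adjusted p = 0.000954, edgeR). Krt17 was 2.76-fold lower in Troy-EGFP- cells (log2 -1.46, SE 0.31, adjusted p = 0.0143, edgeR), a call that was lost without the viable library of mouse 1. Between the sorted populations Krt17 did not pass (log2 -0.69, SE 0.32, adjusted p = 0.225, edgeR), but it did when mouse 1's Troy-EGFP- library was left out (adjusted p = 0.0279, edgeR). The 7 listed of 9 markers of the upper hair follicle summed to 208 and 228 CPM in Troy-EGFP+ cells, 2964 and 1844 among Troy-EGFP- cells and 1321 and 1185 in viable cells. Without the Troy-EGFP+ library of mouse 1, the calls of Krt17 and Krt79 against viable cells were lost (adjusted p = 0.0756 for both, edgeR).

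Krt6a, a type II keratin of the companion layer and of stressed keratinocytes, was at 72.3 and 158 CPM in Troy-EGFP+ cells, 385 and 437 among Troy-EGFP- cells and 125 and 325 in viable cells. It was 3.75-fold lower in Troy-EGFP+ than in Troy-EGFP- cells (log2 -1.91, SE 0.41, adjusted p = 0.00631, edgeR), and this call was lost when mouse 1's Troy-EGFP+ library was left out (adjusted p = 0.153, edgeR). The 11 markers of the lower hair follicle summed to 1082 and 1168 CPM in Troy-EGFP+ cells, 2526 and 4484 among Troy-EGFP- cells and 2520 and 2673 in viable cells, and their part in the Krt6a difference was not tested. Krt6b, a close relative of Krt6a, was at 29.5 and 104 CPM against 136 and 140 CPM, with no overlap and no call (log2 -1.19, SE 0.57, adjusted p = 0.245, edgeR), though it was called without mouse 2's Troy-EGFP+ library (adjusted p = 0.0240, edgeR). Krt16, their type I partner, was at 29.5 and 108 CPM against 121 and 75.8 CPM, so that the populations overlapped. In viable cells mouse 2 was above mouse 1 in all 3 genes, for Krt6b by 194 to 49.9 CPM and for Krt16 by 119 to 39.2 CPM. Krt6a and Krt6b are near-identical over much of their coding sequence, but no 50-base stretch of the last 500 bases of either transcript occurred in another gene of the annotation. Among the abundant keratins, Krt14 and Krt17 shared 9.53% of such stretches, nearly all with each other, and 16.9% of those of Krt16 occurred elsewhere, most in Gm11597, so reads of these genes could have been split. Krt32, a type I hair keratin, was the rarest keratin tested, at 34.8 and 45.1 CPM in Troy-EGFP+ cells, 37.8 and 75.8 among Troy-EGFP- cells and 14.3 and 27.0 in viable cells, and it was not called in any comparison.

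**Figure D2:**
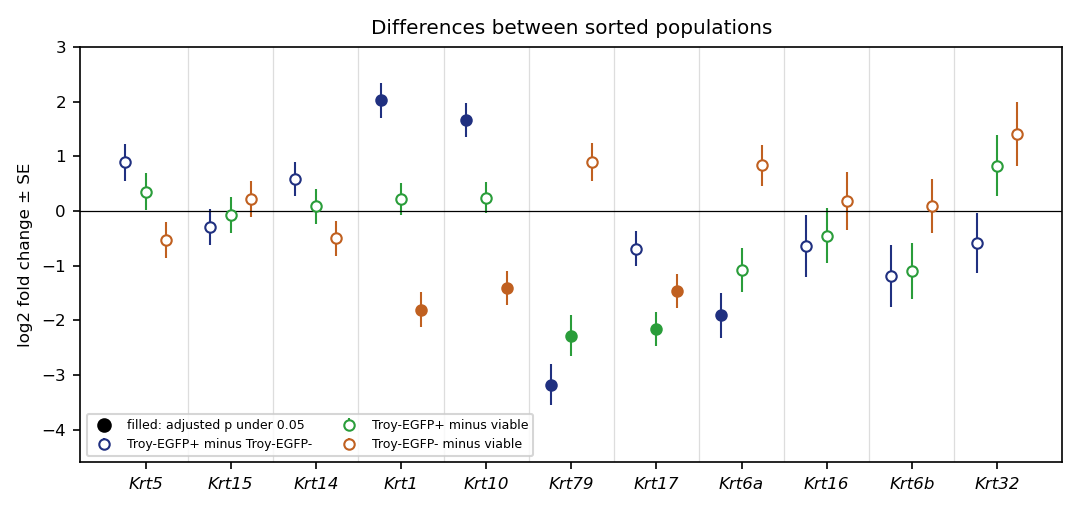
Fitted log2 fold changes of the 11 tested keratins for each pair of bulk populations, with bars of 1 standard error and filled points for an adjusted p under 0.05 in edgeR. Krt1 (2.03) and Krt10 (1.66) lie above 0 and Krt6a (-1.91) and Krt79 (-3.18) below it in Troy-EGFP+ against Troy-EGFP- cells.

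Against viable cells, 2 of the 11 keratins were called for Troy-EGFP+ cells and 3 among Troy-EGFP- cells, all lower. The background was 0.473% of all genes for Troy-EGFP+ cells, 0.408% lower and 0.0645% higher, and 1.78% for Troy-EGFP- cells, 0.86% lower and 0.924% higher. The median over the 11 keratins was -0.08 and 0.09, against 0.01 and 0.04 over all genes, with 4 and 6 keratins at an unadjusted p under 0.05, beside 310 and 630 of all 4653 genes. The comparisons share libraries, and their values are given side by side for that reason.

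Proteins that anchor or cross-link keratin filaments were read from a list of 25 further genes, of which 23 were listed and 16 tested. In Troy-EGFP+ against Troy-EGFP- cells, 4 were higher (2.99% of all genes) and none lower (4.06%), with a median log2 fold change of 0.82 over the 16. The count was 1 without mouse 1's Troy-EGFP+ library (Itga6) or with these populations alone (Dst), and 7 without mouse 2's Troy-EGFP- library (751 of 5586 genes called in all) or without the filter on low counts (409 of 16214). They were Dst, the plakin that ties keratins to the hemidesmosome (log2 1.36, adjusted p = 0.00766, edgeR), and Itgb4, the integrin chain it binds (log2 1.36, adjusted p = 0.0305, edgeR). Itga6, its partner chain and the antigen of the sorting gate, was also higher (log2 1.5, adjusted p = 0.0449, edgeR), as was Tgm3, a cross-linking transglutaminase (log2 2.46, adjusted p = 0.0352, edgeR). Tgm3 had 38 and 8 counts in Troy-EGFP+ and 1 and 3 in Troy-EGFP- libraries. Against viable cells the transglutaminase Tgm5 alone of the list was called, lower for Troy-EGFP+ (log2 -2.46, adjusted p = 0.0193, edgeR) and also for Troy-EGFP- cells (log2 -2.62, adjusted p = 0.0245, edgeR), though not in Troy-EGFP+ cells by DESeq2. Neither vimentin (Vim, 0 to 9 counts in a library) nor nestin (Nes, 0 or 1 count), filament proteins of other lineages, reached the filter.

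In single cells, the median share of a cell's transcripts that came from keratin genes was 0.0937%, 2.31%, 2.46% and 1.99% in Troy-EGFP mice 1 to 4 (1.71% ± 1.10, SD, n = 4) and 3.83% and 3.90% in the traced mice. Mouse 1 was far below the others, and 23 of its 71 kept cells held no keratin transcript at all. With epidermal classes alone the median share was 2.60%, 2.44%, 2.94% and 2.29% in the Troy-EGFP mice, mouse 1 among the others, and 4.00% and 4.01% in the traced mice. Thinned to 1000 transcripts, a cell held a median of 1, 3, 3 and 3 different keratins in Troy-EGFP mice and 4 in each traced mouse. The sets of plates differ in genotype, tamoxifen and gates, so they are given side by side and were not compared by a test.

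Cells were clustered without the keratin genes, so that keratin levels could be described in classes that they had not formed. In Troy-EGFP mice, 156 cells were basal IFE-like, 122 suprabasal IFE-like (committed and suprabasal IFE markers), 147 lower hair follicle (HF)-like and 73 upper HF-like. In traced mice these classes held 127, 42, 100 and 36 cells, and 97 further epidermal cells led by Aldh3a1 and Sostdc1 stayed unnamed. The name suprabasal IFE-like is short for its marker list and does not place these cells above the basal layer. From the sorting gates, the paper proposes that its Krt10-positive IFE cluster holds committed cells of the basal layer. As the gate of a well is not known here, the layer of this class was not tested. The basal IFE-like class of Troy-EGFP mice had no marker of its list among its 10 leading genes, although 10 of 10 were detected and 90% were higher than elsewhere. T cell-like cells (43 and 27) and, in Troy-EGFP mice, 39 Langerhans-like cells and 100 unnamed cells of necrotic or unclear clusters were kept as a background. Each class level below is the CPM of transcripts summed over the cells of 1 mouse, for mice with at least 10 such cells. In Troy-EGFP mice these are all 4 mice for basal IFE-like and unnamed cells, mice 2 to 4 for the other keratinocyte classes, and mice 3 and 4 for T cell-like and Langerhans-like cells. Keratins made up 3.14%, 2.71%, 2.28% and 2.09% of the transcripts of basal IFE-like, suprabasal IFE-like, lower HF-like and then upper HF-like cells of Troy-EGFP mice, and 4.82%, 3.83%, 4.67% and 3.68% in traced mice. They made up 0.156% and 0.13% in T cell-like cells and 0.0951% in Langerhans-like cells.

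Krt5 was highest in basal IFE-like cells, at 14167, 13041, 24209 and 20155 CPM in Troy-EGFP mice 1 to 4, and next in lower HF-like cells, at 10103, 15479 and 13527 CPM in mice 2 to 4. Within each of those mice the basal level was above the lower HF level. Suprabasal IFE-like cells still held 4835, 6598 and 5692 CPM, and upper HF-like cells 5414, 4968 and 5262 CPM, 2 ranges that overlap. In traced mice the order differed at its lower end: upper HF-like cells held 582 and 323 CPM and unnamed cells 8946 to 11873 CPM. Suprabasal IFE-like cells held 3833 and 10101 CPM, and basal IFE-like cells 23065 and 23480 CPM. Krt14 was also highest there, with 7391 ± 1667 CPM in basal IFE-like cells (SD, n = 4), 2994 ± 586 in upper HF-like, 1833 ± 441 in lower HF-like and 1207 ± 731 in suprabasal IFE-like cells (n = 3 each). The last 2 overlap. In traced mice it was at 7043 and 7063 CPM in basal IFE-like cells. There lower HF-like cells, at 3554 and 3773 CPM, were above upper HF-like cells, at 1906 and 1402 CPM. Unnamed cells held 3434 to 4031 CPM.

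Presence in single cells followed the class levels only in part. Thinned to 1000 transcripts, Krt5 was found in 100% of basal IFE-like and 99.3% of lower HF-like cells of Troy-EGFP mice, but also in 51.2% of T cell-like and 56.4% of Langerhans-like cells, types that lack keratins, at median depths of 3217, 2483, 1717 and 3008 transcripts. The shares of the last 2 classes are read as background. The share in suprabasal IFE-like cells was 73.8% and in upper HF-like cells 68.5%. Krt14 was found in 92.9% of basal IFE-like cells and in 16.3% of T cell-like and 5.13% of Langerhans-like cells. Of all kept Krt5-positive cells, 50%, 68.1%, 52.3% and 59.6% also held Krt14 in the Troy-EGFP mice (57.5% ± 8.15, SD, n = 4) and 70.8% and 76.6% in the traced mice. This share varied with the class: in Troy-EGFP mice Krt14 accompanied Krt5 in 145 of 156 basal IFE-like cells (92.9%) and 41 of 50 upper HF-like cells (82.0%). It did so in 70 of 146 lower HF-like cells (47.9%) and 30 of 90 suprabasal IFE-like cells (33.3%). Nearly all basal IFE-like and lower HF-like cells held Krt5, so their values follow the share of all cells with Krt14, 92.9% and 48.3%. Of epidermal cells without Krt5, 32.0% ± 25.1 held Krt14 in Troy-EGFP mice (SD, n = 4) and a mean of 39.8% in traced mice. In traced mice the follicle classes stood in the opposite order, with 5 of 18 upper HF-like cells (27.8%) and 57 of 100 lower HF-like cells (57.0%). The shares were 121 of 127 in basal IFE-like (95.3%), 6 of 23 in suprabasal IFE-like (26.1%) and 80 of 89 in unnamed cells (89.9%). At resolution 0.5, where 131 traced cells were upper HF-like and none was unnamed, this order was not recomputed. In Troy-EGFP mice Krt14 accompanied Krt5 in 5 of 22 T cell-like cells (22.7%) and in 2 of 22 Langerhans-like cells (9.09%).

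Krt1 and Krt10 were found together in nearly all Krt1-positive suprabasal IFE-like cells of Troy-EGFP mice. Krt10 was at 8616, 16733 and 11045 CPM in suprabasal IFE-like cells of mice 2 to 4 and at 15004 and 13312 CPM in those of the traced mice, and Krt1 at 4807, 4646 and 3919 CPM and at 6546 and 7543 CPM. Krt10 was thus the more abundant chain in all 5 of these mice. Elsewhere in Troy-EGFP mice Krt10 ranged from 96.5 to 1683 CPM in basal IFE-like, from 32.9 to 108 CPM in lower HF-like and from 44.1 to 426 CPM in upper HF-like cells, and upper HF-like cells of traced mouse 1 reached 1076 CPM. The background classes of mice 3 and 4 held Krt10 at 98.3 and 30.1 CPM (T cell-like) and 96.5 and 120 CPM (Langerhans-like), so the lower HF-like values and the lowest basal IFE-like and upper HF-like values were at background. A pair of cells carried 96.0% of the basal Krt10 of mouse 1, which had 11 such cells, and another pair carried 71.2% of that of mouse 4, which had 62. Of 99 suprabasal IFE-like cells with Krt1, 98 also held Krt10 (99.0%), and 37 of 38 did in traced mice (97.4%). Of all suprabasal IFE-like cells, 91.0% held Krt10 in Troy-EGFP mice and 95.2% in traced mice. Of epidermal cells without Krt1, a mean of 13.2% and 6.98% held Krt10 in Troy-EGFP and traced mice. Over all kept cells with Krt1 the share was 85.7%, 69.2%, 94.7% and 79.2% in Troy-EGFP mice 1 to 4 (82.2% ± 10.7, SD, n = 4) and 79.4% and 62.1% in traced mice. In basal IFE-like cells, 7 of 10 Krt1-positive cells of Troy-EGFP mice (70.0%) and 6 of 20 of traced mice (30.0%) held Krt10. The minor type II keratins Krt78 and Krt77 were highest on average in suprabasal IFE-like cells. Krt78 was at 0, 145.5 and 289.7 CPM and Krt77 at 0, 42.1 and 24.1 CPM in those of mice 2 to 4.

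A single well decided Krt1 and Krt10 in the lower HF-like cells of traced mouse 2. Krt10 stood at 5622 CPM there, against 31.6 CPM in traced mouse 1, and 99.2% of its transcripts came from 1 of the 43 cells, which also gave 98.3% of Krt1 and all of Krt77 and Krt78. Without that cell Krt10 was at 59.8 CPM and Krt1 at 19.9 CPM. The cell held 50743 transcripts, the highest total of its class in that mouse. No doublet caller was run, and whether the well held more than 1 cell was not tested.

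**Figure D3:**
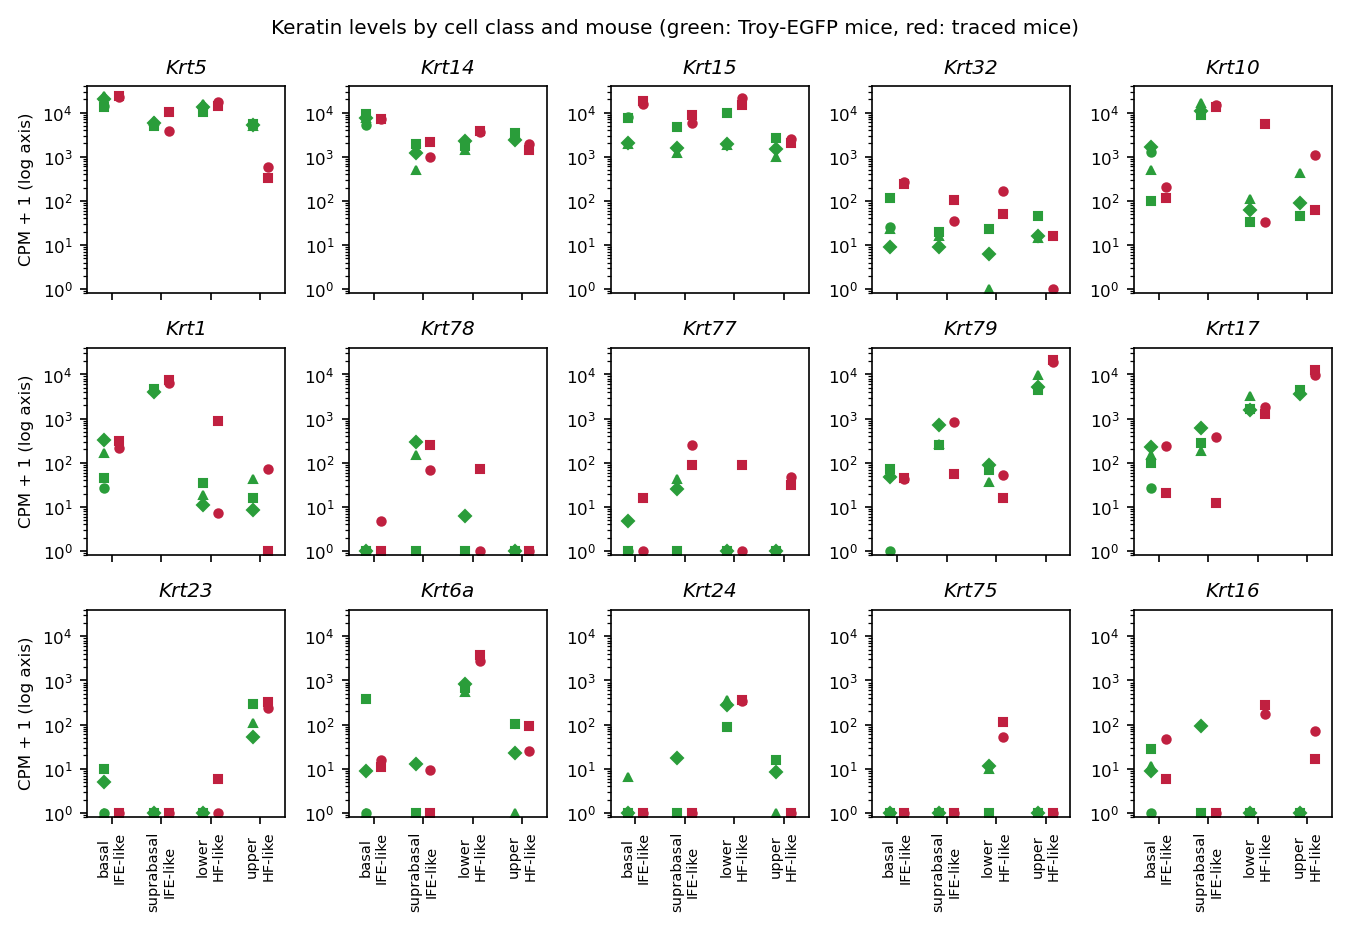
CPM plus 1 (log scale) of 15 keratins summed over the cells of a class, with a point per mouse (green for Troy-EGFP, red for traced, a shape for each mouse), for basal IFE-like, suprabasal IFE-like, lower HF-like and then upper HF-like cells of Troy-EGFP and traced mice. Krt1 and Krt10 peak in suprabasal IFE-like cells, Krt79 and Krt17 in upper HF-like and Krt6a in lower HF-like cells in both sets of plates.

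Krt79 was highest in upper HF-like cells, and Krt17 was shared by the follicle classes. Lower HF-like cells of mice 2 to 4 held Krt79 at 65.8, 36.0 and 87.5 CPM, near the 98.3 and 60.2 CPM of T cell-like cells of mice 3 and 4. In upper HF-like cells Krt79 was at 4510.4, 9517 and 5114 CPM in mice 2 to 4 and at 19540 and 20734 CPM in the traced mice, and in the other named classes it did not exceed 727 CPM in any Troy-EGFP mouse and 822 CPM in any traced mouse. Krt17 was at 4422, 4426 and 3621 CPM in upper HF-like cells and at 1683, 3194 and 1563 CPM in lower HF-like cells, so that it was shared between both follicle classes, with the upper class higher in each mouse. In traced mice the values were 9759 and 12614 CPM against 1846 and 1261 CPM. In the 97 unnamed cells of traced mice, Krt79 was at 1451 and 1841 CPM and Krt17 at 646 and 754 CPM. Over epidermal cells thinned to 1000 transcripts, Spearman's rho of Krt79 with Krt17 averaged 0.26 in Troy-EGFP mice and 0.56 in traced mice, and that of Krt79 with Krt5 averaged -0.29 and -0.49. For comparison, rho was 0.76 and 0.68 for Krt1 with Krt10, 0.44 and 0.53 for Krt5 with Krt14, and -0.33 and -0.25 for Krt14 with Krt10. These describe 26 to 217 cells of each mouse that share a plate and a fixed depth.

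Krt6a was highest in lower HF-like cells, at 692, 549 and 850.1 CPM in mice 2 to 4 and at 2694 and 3704 CPM in traced mice. In the other named keratinocyte classes it stayed at or below 103 CPM except in the basal IFE-like class of mouse 2 with 387 CPM, of which 84.1% came from 1 cell, and T cell-like cells reached 155 CPM in traced mouse 1, from 4 transcripts. Krt16, which pairs with Krt6a, was scarce, with 31.0 transcripts in 10 cells of Troy-EGFP mice and 105 in 11 cells of traced mice, and rho of the pair averaged 0.15 and 0.16. Krt24, a type I keratin, was likewise highest in lower HF-like cells, at 87.8, 360.4 and 283 CPM and, in traced mice, at 348 and 363 CPM, and Krt23 in upper HF-like cells, at 51.3 to 294 CPM and, in traced mice, at 238 and 323 CPM. In no other named keratinocyte class did Krt24 exceed 16.1 CPM or Krt23 exceed 8.77 CPM in any mouse. Krt32 was low everywhere. In basal IFE-like cells it was at 25.2, 114, 21.4 and 7.80 CPM in Troy-EGFP mice 1 to 4, the highest class on average and in mice 2 and 3, while in mouse 4 upper HF-like cells were higher at 14.7 CPM. In traced mice it was at 262 and 235 CPM in basal IFE-like cells, their highest class, and was found in 83 cells of 429.

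Krt15 was lower in upper HF-like and suprabasal IFE-like cells than in the other keratinocyte classes, and basal IFE-like and lower HF-like cells could not be ordered. Upper HF-like cells were lowest on each of the 5 plates that hold all 4 classes, at 990.0 to 2695 CPM, and suprabasal IFE-like cells next, at 1196 to 9041 CPM. In basal IFE-like cells it was at 7792 and 7436 CPM in Troy-EGFP mice 1 and 2 and at 1917 and 2013 CPM in mice 3 and 4, and in lower HF-like cells at 10002 CPM in mouse 2 and 1885 and 1933 CPM in mice 3 and 4. The split separates the plates without mitochondrial rows from those with them, so that table type and mouse cannot be told apart. Krt14 did not split this way, at 5214 and 9258 CPM against 7722 and 7369 CPM in basal IFE-like cells, and Krt5 split along the same plates in the opposite direction, at 14167 and 13041 CPM against 24209 and 20155 CPM. The mean of Krt15 was 4789 ± 3265 CPM in basal IFE-like (SD, n = 4) and 4606 ± 4672 CPM in lower HF-like cells (n = 3), a gap far below the spread. Within plates that hold both, the lower HF level was above the basal level in mouse 2 and traced mouse 1 and below it in mice 3 and 4 and traced mouse 2. In traced mice it was at 15507 and 18464 CPM in basal IFE-like and 21252 and 14983 CPM in lower HF-like cells. The lower HF-like sum of traced mouse 2 includes the well of 50743 transcripts described above, and Krt15 was not recomputed without that well.

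The class with the highest level was the same in both sets of plates for 13 of the 16 keratins measured in both, and it differed for Krt15, Krt16 and Krt4. In Troy-EGFP mice 4 keratins were highest in basal IFE-like, 6 in suprabasal IFE-like, 3 in those of the lower HF and 3 in those of the upper HF. Among the 6 are Krt16 and Krt4, whose suprabasal transcripts came from mouse 4 alone. Without mouse 4 the highest class of Krt16 turned to basal IFE-like and Krt4 had no level, and without mouse 1, 3 or 4 that of Krt15 turned to lower HF-like. With wells of at least 2000 transcripts, Krt15 turned to lower HF-like, Krt32 to suprabasal IFE-like and Krt4 to upper HF-like.

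The keratin with the most transcripts in a thinned cell also differed between classes. Krt5 led in 80.9% of basal IFE-like cells of Troy-EGFP mice (mean of mice, lowest 50%, highest 100%) and in 77.9% of lower HF-like cells (52.6% to 92.5%). Krt10 led in 55.8% of suprabasal IFE-like cells (45.7% to 71.7%), and Krt5 in a further 29.7%. Upper HF-like cells were mixed, with Krt5 leading in 34.9%, Krt79 in 27.6% and Krt14 in 13.5%. In traced mice Krt5 led in 74.2% of basal IFE-like cells and Krt10 in 55.8% of suprabasal IFE-like cells. There Krt15 led in 66.8% of lower HF-like and Krt79 in 69.5% of upper HF-like cells. In Troy-EGFP mice Krt15 led in 31.6% of lower HF-like cells of mouse 2 and at most 1.61% of those of mice 3 and 4. The plates of mice 3 and 4 hold mitochondrial rows, and the others do not. The unnamed traced cells were led by Krt5 in 44.0%, Krt15 in 37.2% and Krt79 in 10.7%. By type, type I chains made up 60.1% ± 2.16 of keratin transcripts in suprabasal IFE-like cells (SD, n = 3) and 42.8% ± 12.2 in basal IFE-like cells (n = 4). The basal share ranged from 29.7% to 55.7% between mice and was lowest in mice 3 and 4, the plates with mitochondrial rows. In traced mice the type I share was 61.8% and 51.0% in these classes.

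**Figure D4:**
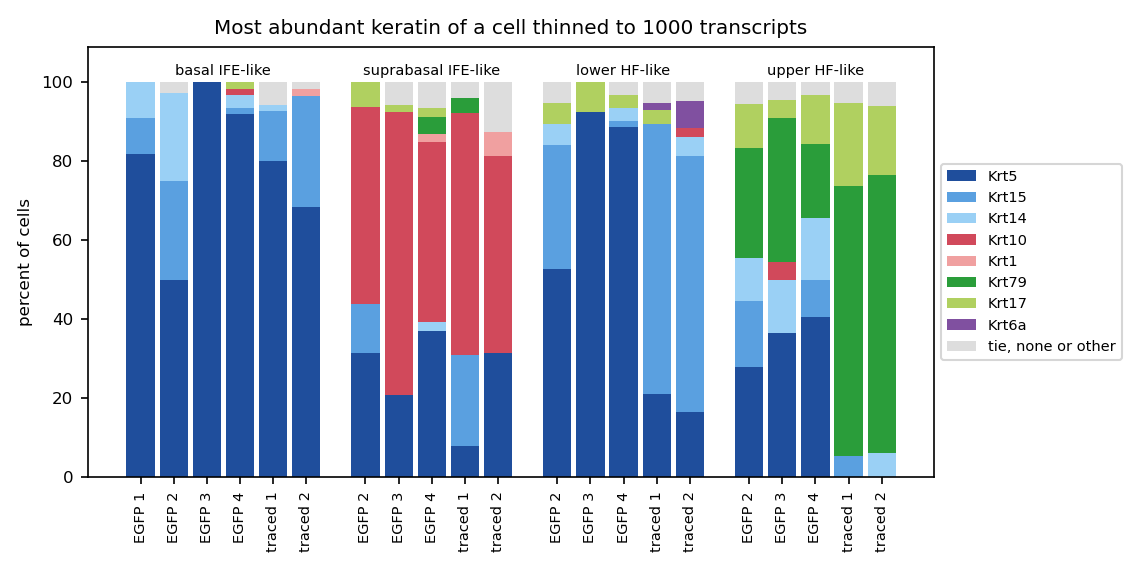
Share of cells (%) of each named class in which a keratin had the most transcripts after thinning, with 1 stacked bar per mouse with at least 10 cells and grey for ties, cells without keratin and other keratins. Krt5 leads 50% to 100% of basal IFE-like cells of Troy-EGFP mice, and Krt79 leads an average of 69.5% of upper HF-like cells in traced mice against 27.6% in Troy-EGFP mice.

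Keratins of simple epithelia were scarce. Krt7, also known from ductal epithelia, was the most frequent of them, with 14 transcripts in 11 cells of Troy-EGFP mice, 15 transcripts in 9 cells of traced mice and 4 bulk counts. Krt8 had 6 transcripts in 4 cells of Troy-EGFP mice and 1 in traced mice, and its partner Krt18 had 9 transcripts in 8 cells and none. In the bulk libraries Krt8, Krt19 and Krt20 had 1 count each over all 6 libraries. Krt8, Krt18 and Krt20 mark Merkel cells, and 3 of 7 other Merkel cell markers were listed, with a summed level of 0 to 8.43 CPM. Hair shaft and inner root sheath keratins were scarce as well: Krt71, Krt73 and Krt75, of the inner root sheath and companion layer, had 14, 13 and 10 bulk counts, 10 of the Krt73 counts in 1 viable library and 8 of the Krt75 counts in the other. Krt25, Krt27, Krt31, Krt82, Krt84 and Krt85 had 1 to 5 bulk counts. Krt2, a suprabasal keratin of thick skin and tail, had 14 transcripts in 12 cells of Troy-EGFP mice, 11 transcripts in 11 cells of traced mice and 3 bulk counts. At these counts no difference between populations was detectable.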

How the data were processed

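The authors deposited CEL-Seq2 counts per gene for the bulk libraries and, for the SORT-seq plates, estimated transcript counts per gene and well, in which the number of molecular barcodes seen was turned into transcripts. The values turn back into whole numbers of barcodes for 6-base barcodes (4096 possible), whereas the labels describe shorter ones. The submitters' processing notes name BWA 0.6.2-r126 and mm10; the counting of strand is not given in the sources used here.

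The keratin genes and the gene lists were chosen with earlier results of these data known. Bulk counts were filtered (filterByExpr), scaled by TMM and tested with edgeR 4.0.16 (quasi-likelihood, 1 term per population, all 6 libraries, Benjamini-Hochberg adjustment). DESeq2 1.42.0, other scalings, no filter, a mouse block and each library left out were alternatives. On simulated data with 200 changed genes (log2 fold change 2, 4653 genes), 85% were recovered and 4.49% of calls were false. Deviations of same-numbered libraries correlated with r of 0.0521 to 0.0900. With 2 replicates this cannot decide whether the libraries are paired, and the main fit used no pairing. CPM are TMM-scaled for single bulk genes and plain for marker sums and classes.

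Wells with at least 1000 transcripts outside spike-in and mitochondrial rows were kept and thinned to 1000 transcripts for shares of cells. Clusters came from Seurat 5.3.0 (sctransform 0.4.2, 3000 variable genes, 20 components, resolution 0.8) without keratins. Clusters were named after the marker list whose genes rose most on average (log2 fold), if at least 3 markers were detected and 1 was among the 20 leading genes (the 10 leading genes for cells other than keratinocytes); this rule was set after the clusters were seen. No doublets were removed. Differences between classes were not tested, and shares cover counting error only. Keratins with at least 10 bulk counts or found in at least 2% of the kept cells of Troy-EGFP mice are named; Krt2, Krt7 and other rarer keratins were named after their values were seen. Keratins below the bulk filter were described by counts.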

Additional observations from a re-analysis of the deposited data

Results flagged for a closer look

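In 5 of 27 groups of the 4 Troy-EGFP mice, 1 mouse lay apart from the other 3 by Dixon's criterion, which about 1 in 20 groups meet by chance. Mouse 1 had a median of 1.0 keratin gene in a thinned cell, where the others had 3, and its Krt79 level over all kept cells was 45.5 CPM against 933, 943 and 1067 CPM. Most of its kept wells fell in the Mir1950-led cluster. Over its 26 cells outside the necrotic and non-epidermal clusters the median was 3.0 keratin genes, as in the other mice, whereas Krt79 was found in 3.85% of these thinned cells against 18.5%, 13.0% and 16.8% in mice 2 to 4.

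Mouse 2 was high in Krt32 over all kept cells, at 52.1 CPM against 6.49, 6.89 and 11.7 CPM, and in basal IFE-like cells, at 114 CPM against 7.80, 21.4 and 25.2 CPM. The 13.0 Krt32 transcripts of its basal IFE-like cells came from 8 cells, the highest of which held 3.00. Krt6a in basal IFE-like cells of mouse 2 was at 387 CPM against 0, 0 and 7.80 CPM, and it was at 63.7 CPM without 1 cell.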

How the results depend on the processing

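Of 115 values recomputed for the comparisons, 95 stayed within their limits and 20 moved. Of 424 recomputed fold changes of named genes, 13 gained a call, 8 lost one and none that was called changed sign. The other 403 stayed called or stayed not called. As the main fit called 4, 2 and 3 keratins in the comparisons, most of these 403 had no call to keep. Keratins called in Troy-EGFP+ against Troy-EGFP- cells numbered 3 to 7 with each library left out, with 7 without the Troy-EGFP- library of mouse 1, and 4 to 5 under the other settings. The genes called in all moved as well, from 131 of 4948 without the Troy-EGFP+ library of mouse 1 (3 keratins) to 432 of 5600 and 751 of 5586 without the Troy-EGFP- library of mouse 1 (7 keratins) and of mouse 2 (5 keratins). Against viable cells, Troy-EGFP+ cells gave 0 to 4 keratins with a library left out (0 without the Troy-EGFP+ library of mouse 1, 4 without either Troy-EGFP- library) and 2 otherwise. Troy-EGFP- cells gave 1 to 5 with a library left out (1 without the viable library of mouse 1, 5 without the Troy-EGFP- library of mouse 2) and 1 with only the 2 populations compared. For the filament list, alternatives were chosen after seeing the data. They gave 7 genes without the count filter, 1 with only the 2 populations compared and 1 to 7 with a library left out in Troy-EGFP+ against Troy-EGFP- cells (1 without the Troy-EGFP+ library of mouse 1, 7 without the Troy-EGFP- library of mouse 2). Against viable cells they gave 2 without the filter, 0 with DESeq2 and 0 to 1 with a library left out for Troy-EGFP+ cells (0 without the second replicate of either the viable or the Troy-EGFP+ libraries). For Troy-EGFP- cells they gave 2 without the filter, 2 with the mouse number as a replicate block and 0 to 6 with a library left out (0 without the viable library of mouse 2, 5 and 6 without the Troy-EGFP- library of mouse 1 and of mouse 2). The replicate block otherwise changed no call on a keratin, with 468, 49 and 163 genes called in all, against 328, 22 and 83 in the main fit. The causes were not tested. Leaving out the filter shifted the median of all genes by 0.17 in Troy-EGFP+ against Troy-EGFP- cells and by -0.18 in Troy-EGFP- against viable cells, and plain library sizes shifted the latter by -0.11. In single cells the median keratin share was 1.46% to 2.25% with a mouse left out.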
